A study of Homo sapiens with 8 samples.

Results

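The cytosolic ribosomal protein genes encode the protein parts of the ribosome that works in the cytoplasm, and they were taken here as every gene row whose symbol follows the RPL and RPS naming pattern, which leaves out their pseudogenes, the RPS6 kinases and the mitochondrial ribosome. The pattern matched 99 of the 63677 rows of the deposited table. Of these rows, 13 were duplicate entries of RPS18, RPS9, RPL7A, RPS25, RPL10, RPL36A or RPS19 with a value of 0 in every library, and the other 86 carried 86 different symbols. All 86 reached a value of at least 10 in at least 4 of the 8 libraries, as did 19559 genes in the whole table. They comprise 46 genes of the large subunit, 31 of the small subunit and 9 copies whose symbols carry an added L, among them RPL3L, RPL7L1, RPL10L, RPL22L1, RPL26L1, RPL36AL, RPL39L and RPS27L.

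The libraries are polyadenylated RNA from LY2, an endocrine-resistant breast cancer line derived from MCF-7 cells. A stable non-targeting short hairpin RNA (shNT, 4 libraries) was compared with a stable hairpin against SRC-1, the steroid receptor coactivator encoded by NCOA1 (shSRC1, 4 libraries). Cells of both groups were kept in steroid-stripped medium with 4-hydroxytamoxifen at 1e-08 mol/L and puromycin at 500 ng/mL, were depleted of steroids for 72 hours, and then received 4-hydroxytamoxifen at 1e-07 M for 8 hours. No library without tamoxifen and no second hairpin was analysed here, and the labels state neither whether each line was a single clone nor how the replicates were grown; p-values therefore rest on library-to-library spread, part of which may be technical.

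A ribosome joins a large subunit, which forms the peptide bond, with a small subunit, which reads the message. Most of its proteins are present once per ribosome, and their genes are known to be transcribed at high and similar rates. Their messages typically begin with a C and a run of pyrimidines, the terminal oligopyrimidine (TOP) tract, through which mTORC1 and LARP1 control their translation and stability. Copies with an added L arose by duplication, and several are known from tissues other than breast.

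NCOA1 itself had values of 4381, 4212, 4467 and 4525 in shNT replicates 1 to 4 and of 1927, 1895, 2215 and 2107 in the shSRC1 replicates. It fell by 1.11 on the log2 scale (SE 0.08, limma adjusted p = 2.2e-07, exact two-sided permutation p = 0.0286, the smallest that 4 against 4 allows). All 7 luminal markers were detected. Their summed value was 291009 to 369166 in shNT and 462972 to 528373 in shSRC1, so the sum too was higher in shSRC1. KRT8 had the largest part in that sum, with a mean of 171409, and the direction of each single marker is not given. The part of these markers in the results below was not tested. The 5 leukocyte markers summed to at most 78.9 in any library, the 5 fibroblast markers to 1401 to 2075 (mostly COL1A1) and the 3 endothelial markers to 194 to 282 (mostly VWF, with PECAM1 at 0 in every library). Depth ran from 33771775 reads in shSRC1 replicate 2 to 67022036 in shNT replicate 2. In RNA from whole cultures, fewer cells of a type and less RNA per cell cannot be told apart.

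Ribosomal protein genes were higher in the cells with the SRC-1 hairpin. With limma on log2(value + 1) and Benjamini-Hochberg adjustment over all 19559 genes, 69 of the 86 rose at an adjusted p under 0.05, where 12.0% of all tested genes did. The same test called 0 of the 86 lower, where 11.2% of all tested genes fell. Over the 86 genes the median log2 fold change was 0.49 (1.40-fold), beside 0.00 over all tested genes, and the values ran from -0.60 for RPL10L to 0.77 for RPS27. In 76 of the 86 every shSRC1 value lay above every shNT value, a pattern that 16.9% of all tested genes showed.

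Genes of both subunits rose. Of the 46 large subunit genes 38 rose, with a median of 0.48, and of the 31 small subunit genes 28 rose, with a median of 0.50. Of the 9 L-named copies 3 rose, RPS27L and RPL22L1 among them, with a median of 0.34. Summed within a library, large subunit values stood above small subunit values by 0.52 to 0.55 on the log2 scale in shNT and by 0.49 to 0.52 in shSRC1, and the groups overlapped.

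**Figure D1:**
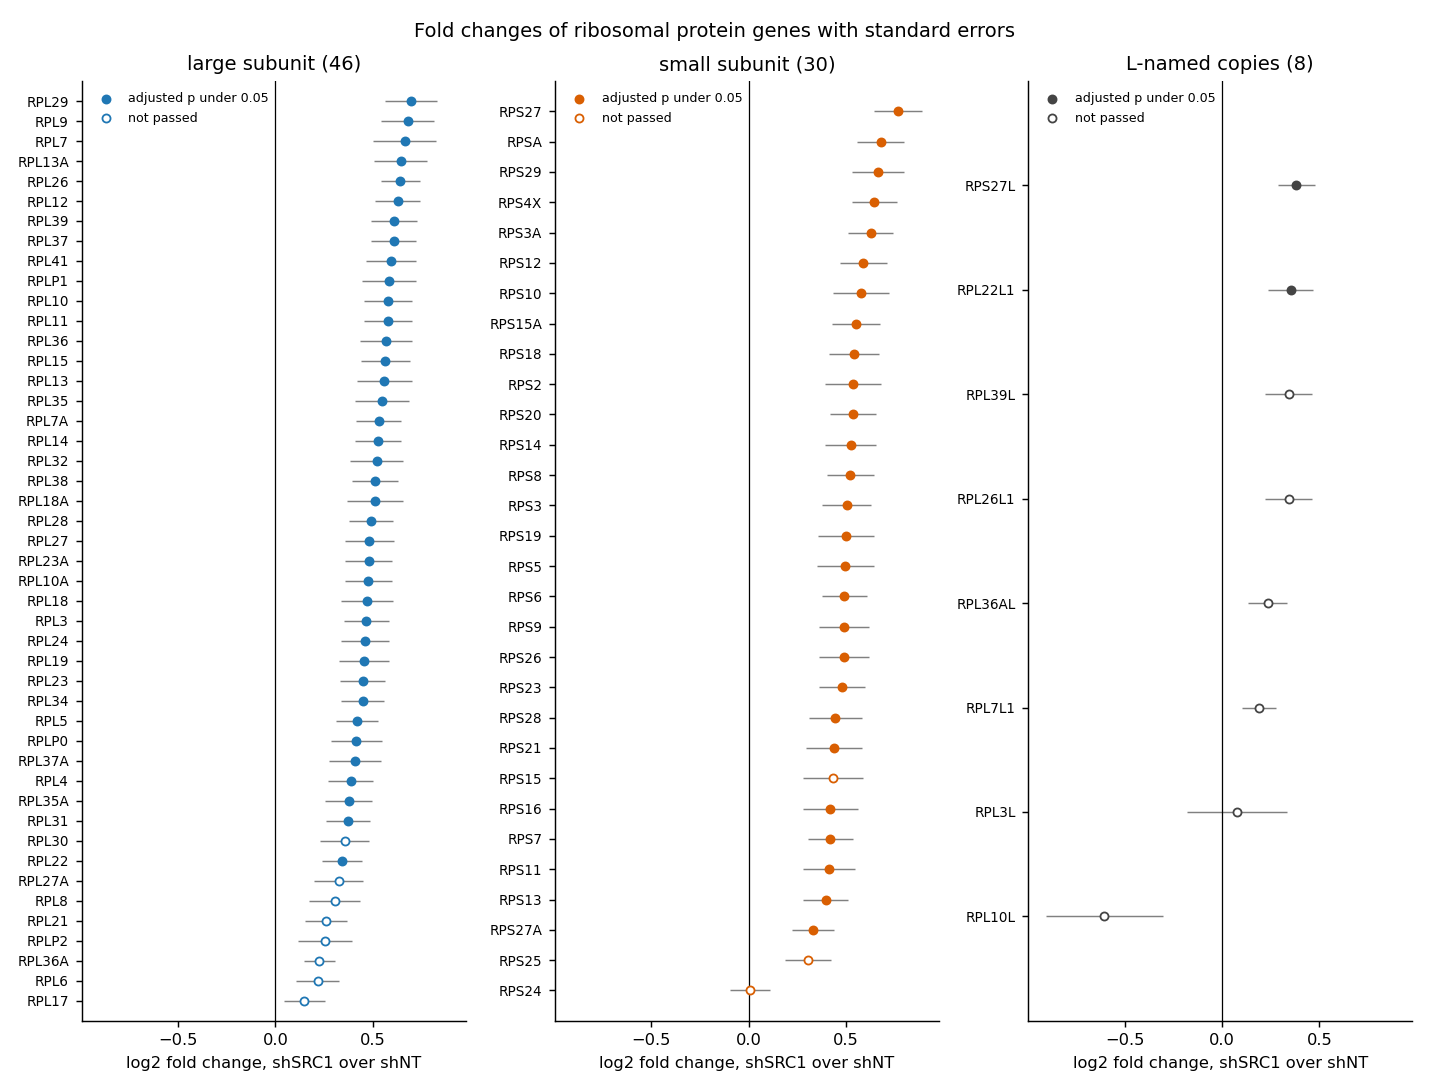
Each point is the log2 fold change of a ribosomal protein gene, shSRC1 over shNT (horizontal axis), with its standard error as a bar; filled points passed an adjusted p of 0.05 in limma, and the panels hold the 46 large subunit genes, 30 of the 31 small subunit genes and 8 of the 9 L-named copies. RPL10L at -0.60 is the single gene below 0, and RPS24 stands apart from the other small subunit genes at 0.01.

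As a share of all gene reads, the 86 genes took 3.95%, 4.42%, 3.07% and 4.28% in shNT replicates 1 to 4 and 5.19%, 5.30%, 5.13% and 5.32% in the shSRC1 replicates. The lowest shSRC1 share lay above the highest shNT share. The mean share was 3.93% ± 0.61 (SD, n = 4) in shNT and 5.24% ± 0.09 (SD, n = 4) in shSRC1. Wilson 95% intervals, which cover counting error only, were at most 0.0151 percentage points wide.

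In shNT, replicate 3 stood apart: there the median ribosomal protein gene lay 0.68 below its own mean over the 8 libraries on the log2 scale. The other shNT libraries lay at -0.19, -0.02 and -0.08, and the shSRC1 libraries at 0.25, 0.22, 0.20 and 0.29. Without shNT replicate 3 the median fold change was 0.33 (1.26-fold), and 70 genes rose, 67 of them among the 69. The same fit called 1 gene lower, RPL10L.

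**Figure D2:**
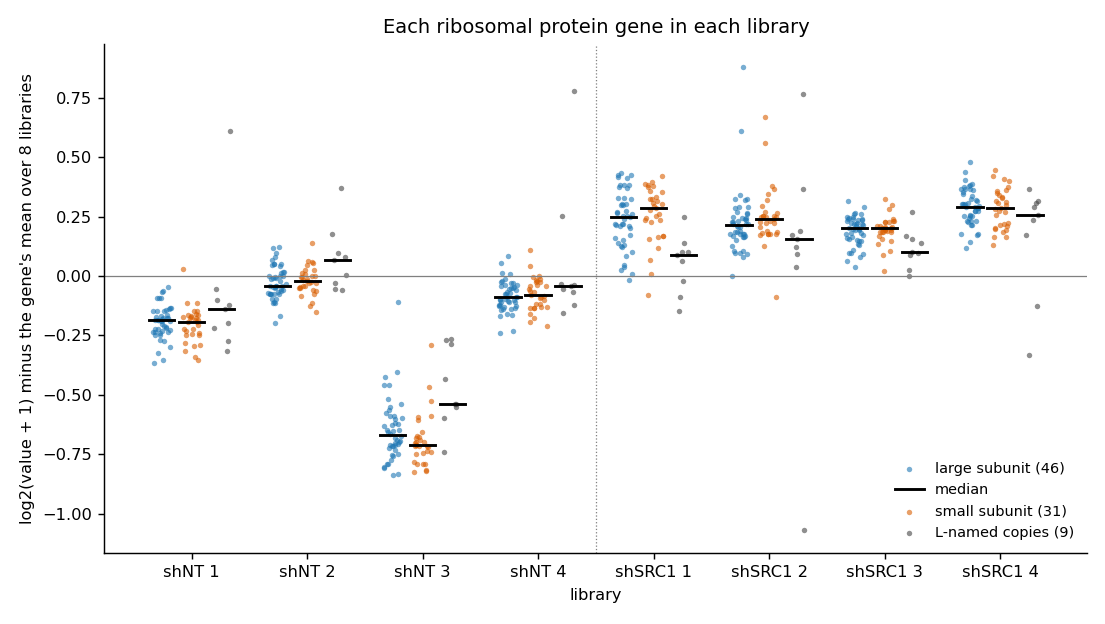
Each point is a ribosomal protein gene in a library, as log2(value + 1) minus the mean of that gene over the 8 libraries (vertical axis), with the medians of large subunit genes, small subunit genes and L-named copies as black bars. All 3 medians are below 0 in shNT replicates 1, 3 and 4, with replicate 3 lowest at -0.67, -0.71 and -0.54, and above 0 in the 4 shSRC1 libraries.

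Other measures also differed between libraries. Among 747 other coding genes with transcripts of at most 1000 bases, the median log2 fold change was 0.17, and 0.07 without shNT replicate 3. Of these 747 genes, 145 were higher (19.4%, beside 12.0% of all tested genes) and 41 lower (beside 11.2%). Their median deviation in shNT replicate 3 was -0.39. The part of short transcripts in the result was not tested. Across all tested genes, the Spearman correlation of a library's deviations with GC content ran from -0.23 in shNT replicate 3 to 0.49 in shSRC1 replicate 1. It was 0.18, -0.09 and -0.21 in shNT replicates 1, 2 and 4. In shSRC1 replicates 2, 3 and 4 it was 0.19, -0.10 and -0.22, so the groups overlapped. These values describe the libraries over genes, which are not replicates. With transcript length and GC content smoothed out of each library, 56 of 85 ribosomal protein genes rose and the median was 0.45. Over all 18787 genes in that fit, 14.7% rose and the median was 0.01. The part of length and GC content beyond that correction was not tested. The 13 mitochondrially encoded messages took 5.39% to 7.31% of reads in shNT and 4.82% to 5.51% in shSRC1.

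**Figure D3:**
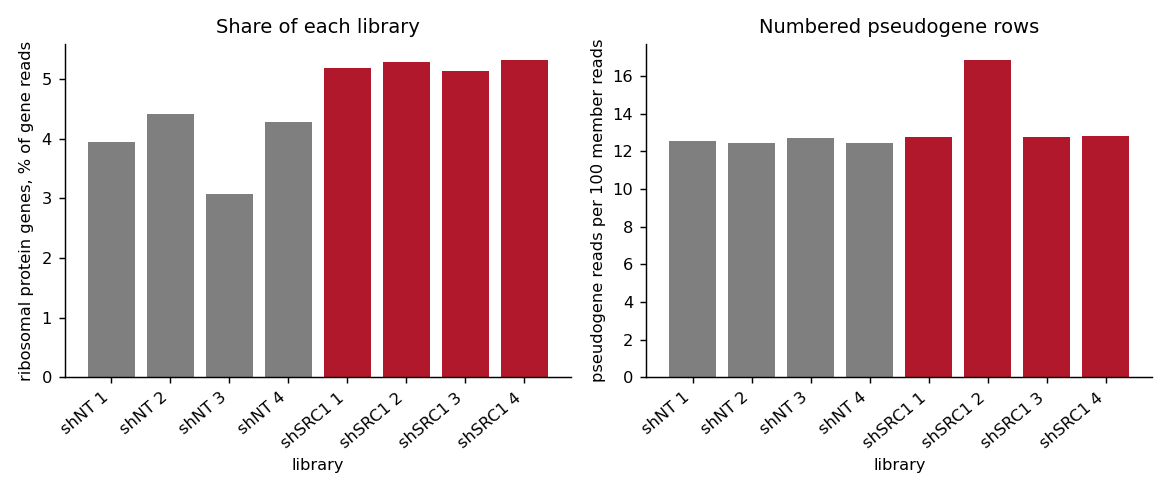
The bars give, for each library, the share of gene reads in the 86 ribosomal protein genes (left) and the reads of their numbered pseudogene rows per 100 reads of the genes (right), with shNT in grey and shSRC1 in red. The share runs from 3.07% to 4.42% in shNT and from 5.13% to 5.32% in shSRC1, and the pseudogene ratio is 12.4 to 12.8 in 7 libraries and 16.8 in shSRC1 replicate 2.

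**Figure D4:**
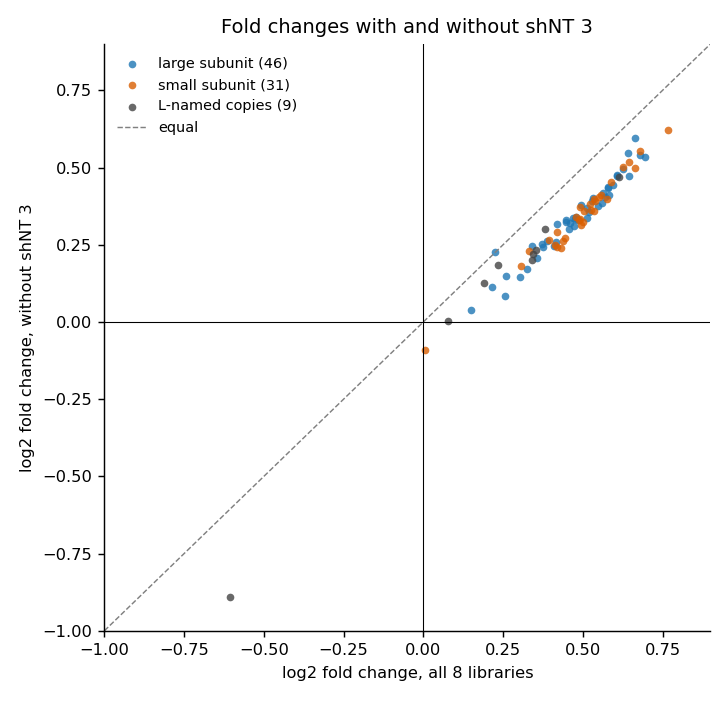
Each point is a ribosomal protein gene, with its log2 fold change over all 8 libraries on the horizontal axis and without shNT replicate 3 on the vertical axis; the dashed line marks equal values. Most points lie below the line, their median moving from 0.49 to 0.33, and RPL10L is the lowest on both axes.

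The small subunit held the gene with the largest rise. RPS27, a zinc-binding protein of the small subunit, had values of 21587, 24815, 15646 and 23849 in shNT and 36261, 35530, 34550 and 37525 in shSRC1. The shSRC1 libraries were all higher, by a log2 fold change of 0.77 (adjusted p = 0.0006 in limma, SE 0.12), and 0.62 without shNT replicate 3. It passed the threshold under all 23 alternative settings.

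RPSA, also known as the laminin receptor precursor, stood at 10471, 12150, 8060 and 11709 in shNT and at 16491, 19504, 15271 and 16012 in shSRC1, a log2 fold change of 0.68 (adjusted p = 0.0014 in limma, SE 0.12). Its groups did not overlap, and shSRC1 replicate 2 was the highest. Rows of its pseudogenes hold 71.3% of the reads of the RPSA family, so its own level is uncertain.

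RPS4X, an X-linked protein of the small subunit, gave 24502, 28713, 18736 and 26668 in shNT and 36092, 38628, 36984 and 40750 in shSRC1. Its log2 fold change was 0.64 (adjusted p = 0.0015 in limma, SE 0.12), with no overlap. RPS3A, a protein of the small subunit platform, measured 16894, 19079, 12786 and 18454 in shNT against 24285, 26787, 24248 and 27372 in shSRC1, a log2 fold change of 0.63. As for RPSA, pseudogene rows hold most of its family's reads, 61.0%.

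RPS29, a small zinc-binding protein of the head of the subunit, rose from 21196, 24675, 14674 and 23662 to 33870, 31894, 31917 and 33120, a log2 fold change of 0.66. The 4 shSRC1 libraries differed from each other far less than the 4 shNT libraries, with an SD of 967 against 4496. RPS12, another head protein, rose from 24300, 28359, 18222 and 26996 to 34638, 36919, 34604 and 39065, a log2 fold change of 0.59. Neither gene's groups overlapped.

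The head of the small subunit, which swivels as the ribosome moves along the message, contributed 14 genes, of which 12 rose with a median of 0.50, and the body contributed 17, of which 16 rose with a median of 0.49. RPS15 and RPS25 in the head did not pass the threshold, at 0.43 (limma adjusted p = 0.060) and 0.31 (limma adjusted p = 0.072). RPS15 passed without shNT replicate 3 (limma adjusted p = 0.022), which was the library lowest in it. RPS27A, made as a fusion of ubiquitin with a ribosomal protein, rose by 0.33, and it is the only gene among the 69 whose groups overlapped: its values were 31296, 35676, 25392 and 33725 in shNT and 35226, 39875, 39004 and 43620 in shSRC1. RPS6, the classic substrate of the S6 kinases, rose by 0.49 from a mean of 48301 ± 8174 (SD, n = 4) to 67199 ± 3853 (SD, n = 4).

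In the body, RPS24 did not share the shift. Its values were 28305, 30574, 22700 and 29893 in shNT and 26211, 26079, 28120 and 31057 in shSRC1, so the groups overlapped throughout. The log2 fold change was 0.01, with a 95% interval of -0.22 to 0.23 that lies below the small subunit median of 0.50. Its sign turned under 10 of the 23 alternative settings, to -0.09 without shNT replicate 3. RPS24 is among the genes mutated in Diamond-Blackfan anaemia, an inherited failure of red cell production.

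Among large subunit genes, RPL26, which sits at the exit of the tunnel through which the new protein leaves, had the smallest adjusted p. Its values were 8663, 9304, 6878 and 8836 in shNT and 12143, 12567, 13016 and 14558 in shSRC1, a log2 fold change of 0.64 (adjusted p = 0.0005 in limma, SE 0.10). The lowest shSRC1 library stood well above the highest shNT library, and without shNT replicate 3 the value was 0.55.

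RPL12, at the base of the stalk that recruits elongation factors, had 17206, 19634, 12919 and 19309 in shNT and 27587, 24990, 25370 and 27422 in shSRC1. That is a log2 fold change of 0.63, and RPL12 also shares its reads with pseudogene rows, which hold 38.7% of its family. RPL29, a protein at the surface of the large subunit, had the largest fold change of that subunit, at 0.70 (adjusted p = 0.0023 in limma, SE 0.13). It went from 14591, 17066, 10239 and 16547 to 24282, 22851, 22284 and 23519, and without shNT replicate 3 its value was 0.53.

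RPL37 and RPL39 are small basic proteins bound to ribosomal RNA near the exit tunnel. RPL37 had 22672, 25171, 16435 and 24032 in shNT and 33173, 32363, 32268 and 34986 in shSRC1, a log2 fold change of 0.61. RPL39 had 22177, 25400, 16456 and 23838 in shNT and 31846, 32678, 31623 and 36244 in shSRC1, also 0.61. For both genes every shSRC1 library stood above every shNT library.

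RPL9, next to the stalk base, had 13747, 16233, 10392 and 16027 in shNT and 20460, 26822, 20208 and 21994 in shSRC1, a log2 fold change of 0.68. Its highest value was in shSRC1 replicate 2, at 1.28 times the mean of the other shSRC1 libraries. Pseudogene rows hold 34.9% of the reads of the RPL9 family, and their sum was also highest in shSRC1 replicate 2. RPL7 stood out more in that library, with 7171 against 3920, 4327 and 4785 in the other shSRC1 libraries and 3030, 3403, 2689 and 3322 in shNT. Its log2 fold change of 0.66 had an adjusted p of 0.013 in limma and of 0.081 without shNT replicate 3. Pseudogene rows hold 89.9% of the reads of the RPL7 family, the largest such share among the 86 genes.

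Of the 8 genes for proteins along the tunnel or at its exit (RPL4, RPL17, RPL19, RPL23A, RPL26, RPL31, RPL35 and RPL39), 7 rose. Their median was 0.47. RPL17 did not pass, with 3492, 3958, 2762 and 3797 in shNT and 3770, 3651, 3745 and 4237 in shSRC1, a log2 fold change of 0.15 (limma adjusted p = 0.32). Its groups overlapped, and the value was 0.04 without shNT replicate 3. A separate row for the readthrough gene RPL17-C18orf32 is named for the same locus and held values of 6.36 to 23.8 per library.

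The 5S particle places 5S ribosomal RNA in the large subunit, and outside the ribosome its proteins RPL5 and RPL11 are known to bind MDM2 and stabilise p53. RPL5 had 24726, 28038, 19655 and 25766 in shNT and 30191, 31778, 31872 and 36723 in shSRC1, and RPL11 had 23165, 26465, 16665 and 24431 in shNT and 31772, 33416, 32238 and 36154 in shSRC1. Neither gene's groups overlapped, and the log2 fold changes were 0.42 for RPL5 and 0.58 for RPL11 (limma adjusted p = 0.014 and 0.0042).

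The P stalk, made of RPLP0 with RPLP1 and RPLP2, activates the GTPases of elongation. RPLP1 rose by 0.58, from 39234, 42052, 25338 and 41124 to 57491, 52250, 52706 and 54738. RPLP0 rose by 0.42, from 79386, 90945, 54782 and 84612 to 106313, 98620, 98129 and 102905. Both had separate groups, and RPLP0 lost its call without shNT replicate 1 or any 1 of the shSRC1 libraries.

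RPLP2 had 12865, 14671, 8602 and 14277 in shNT and 15635, 14400, 14087 and 14888 in shSRC1. Its shSRC1 values lay within or near the range of the 3 higher shNT libraries, and its log2 fold change of 0.26 did not pass (limma adjusted p = 0.19). Without shNT replicate 3 it was 0.08. The differences between the 3 stalk genes were not tested.

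RPL6, one of the larger proteins of the subunit, also kept overlapping groups, with 42302, 48265, 33690 and 44768 in shNT and 44586, 47703, 48304 and 54614 in shSRC1. Its log2 fold change was 0.22 (limma adjusted p = 0.17). The remaining large subunit genes that did not pass were RPL8, RPL21, RPL27A, RPL30 and RPL36A, at 0.23 to 0.36, and in RPL8, RPL27A, RPL30 and RPL36A every shSRC1 value nonetheless lay above every shNT value. RPL30 and RPL36A passed without shNT replicate 3.

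Of the X-linked genes, RPL10, which joins the large subunit late in its assembly, had 33589, 37835, 23760 and 35834 in shNT and 49523, 49302, 45896 and 48199 in shSRC1, a log2 fold change of 0.58. RPL36A, also X-linked, is the only gene of the 86 whose value in shNT replicate 3 was not below the mean of the other shNT libraries: it had 1964, 2085, 2093 and 2212 in shNT and 2315, 2425, 2386 and 2649 in shSRC1. Its log2 fold change of 0.23 did not pass (limma adjusted p = 0.051) and was also 0.23 without that library.

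Levels were compared between genes per kilobase of coding sequence, on the scale of the deposited values averaged over shNT. RPL41, with the shortest coding sequence of the set at 75 bases, stood highest at 899065, followed by RPS2 at 158762 and RPL39 at 143580. Untranslated parts can also give reads, and this divisor leaves them out. The RPL41 transcript has 469 bases, and that of RPL39 has 401 with 153 coding. The order of genes therefore rests in part on the divisor, and levels per kilobase of transcript were not compared. The median per coding kilobase was 43452 over 53 large subunit genes and 55379 over 32 small subunit genes with an annotated coding sequence, copies included. RPL3L and RPL10L were lowest, at 27.3 and 159. Across 85 genes the log2 fold change had a Pearson correlation of 0.05 with GC content and of -0.11 with log2 coding length. With the log2 shNT mean over 86 genes it was 0.51, while Spearman's rho was 0.13. These are descriptions over genes that share the same 8 libraries.

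The starts of these messages were read from RefSeq promoter windows on GRCh38.p14, which held 68 of the 86 symbols. A TOP tract was scored where a C within 3 bases of an annotated start opened a run of at least 5 pyrimidines. At least 1 start carried a tract in 53 of the 68 genes (77.9%). Counted by start, 54 of 84 starts of these genes (64.3%) carried one, beside 4574 of 35116 starts of all genes (13.03%). In the 53 genes with a tract 47 rose and the median log2 fold change was 0.49, and in the 15 without 8 rose and the median was 0.39. Of the 15 without a tract, 5 are L-named copies, beside 1 of the 53 with a tract. Of the 5 copies without a tract, only RPS27L rose. The other 10 genes without a tract include RPS29, RPS4X and RPL9, which are among the genes with the smallest adjusted p. Of those 10, all but RPL6, RPL17 and RPS15 rose. Copies therefore weigh more on the group without a tract, and canonical genes with and without one were not compared. Without a tract means only that none was scored at an annotated start. A tract that opens further than 3 bases from that start is missed, so these genes are not shown to lack one.

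The sequences below run from 10 bases before the annotated start to 20 bases from it, 5′ to 3′ on the strand of the gene, with the tract in capitals. They are shown because canonical genes and their copies can be read against each other. RPS24, for which no difference was detected, carries the longest tract among them. The part of tract length in the fold changes was not tested.
RPS27 (chr1:153990752-153990781, plus strand): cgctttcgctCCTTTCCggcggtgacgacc
RPS27L (chr15:63157458-63157487, minus strand): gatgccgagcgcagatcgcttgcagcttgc
RPL26 (chr17:8383174-8383203, minus strand): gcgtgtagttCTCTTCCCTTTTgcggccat
RPL26L1 (chr5:172958719-172958748, plus strand): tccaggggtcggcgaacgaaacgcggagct
RPL22 (chr1:6199576-6199605, minus strand): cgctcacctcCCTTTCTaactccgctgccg
RPL22L1 (chr3:170870176-170870205, minus strand): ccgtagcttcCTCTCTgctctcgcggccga
RPL36A (chrX:101391001-101391030, plus strand): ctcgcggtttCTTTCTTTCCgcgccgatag
RPL36AL (chr14:49620607-49620636, minus strand): tcttccctttcctgttaggcgagagctgcg
RPL7L1 (chr6:42879606-42879635, plus strand): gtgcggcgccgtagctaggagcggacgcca
RPS24 (chr10:78033853-78033882, plus strand): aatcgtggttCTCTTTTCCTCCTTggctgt
RPL29 (chr3:51995876-51995905, minus strand): cagcccctttCTCTTCCggttctaggcgct

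Within the 300 bases around each start, 4 further motifs were searched on both strands. The ETS core CCGGAAGT was found in 11 of the 68 genes (16.2%), beside 4.14% of all starts, and the YY1-type motif ATGGCGGC in 5 (7.35%), beside 3.00%. The GC box GGGCGG was found in 40 (58.8%), beside 45.0%. The estrogen response element, GGTCA and TGACC with any 3 bases between, was found in 0 of the 68, beside 0.057% of all starts. A gene with several starts counts once if any start holds the motif, so the shares of genes and of starts have different bases.

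For 8 pairs, a copy was compared with its canonical partner within each library, where the ratio does not depend on how libraries are scaled. Exact two-sided permutation tests over the 8 libraries were adjusted over the 8 pairs. The ratio was lower in every shSRC1 library than in any shNT library for RPS27L, RPL26L1, RPL39L, RPL7L1 and RPL10L. Each had an exact permutation p = 0.0286, the smallest possible, and 0.0457 after adjustment. In each of these pairs the canonical gene rose, so a gene that did not change would also have a lower ratio to it. How often genes other than the copies show such a ratio was not tested.

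RPS27L, which is known as a p53 target, stood at 4154, 4664, 3583 and 4654 in shNT and at 5146, 5522, 5429 and 6022 in shSRC1. It rose by 0.38 (limma adjusted p = 0.011), less than RPS27, and the log2 ratio of RPS27L to RPS27 went from -2.32 ± 0.13 (SD, n = 4) to -2.70 ± 0.08 (SD, n = 4). In the sequences above, RPS27 opens with a tract and RPS27L does not.

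RPL26L1 differs from RPL26 in a few residues. It had 3472, 3963, 2496 and 3691 in shNT and 4048, 4257, 4204 and 4512 in shSRC1, with separate groups and a log2 fold change of 0.34 (limma adjusted p = 0.050, just above the threshold). The ratio of RPL26L1 to RPL26 went from -1.32 ± 0.10 to -1.62 ± 0.06 (SD, n = 4 each).

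RPL39L, known mainly from the testis, had 892, 1011, 658 and 880 in shNT and 1136, 1043, 975 and 1170 in shSRC1. Its groups overlapped slightly, its log2 fold change was 0.34 (limma adjusted p = 0.052), and the ratio to RPL39 went from -4.67 ± 0.06 to -4.94 ± 0.09 (SD, n = 4 each).

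RPL7L1, an RPL7-like protein, had higher group means than the other copies, with 21538, 22400, 18358 and 21709 in shNT and 23379, 22943, 23984 and 25228 in shSRC1. The groups were separate, but the log2 fold change of 0.19 did not pass (limma adjusted p = 0.13). Its log2 ratio to RPL7 went from 2.76 ± 0.06 to 2.28 ± 0.41 (SD, n = 4 each). Pseudogene rows hold 89.9% of the reads of the RPL7 family, so the level of this ratio and its change are uncertain. The difference of -0.48 was -0.27 without shSRC1 replicate 2, the library in which RPL7 stood apart.

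RPL10L, an intronless copy of RPL10 known from the testis, was the single gene of the 86 with a fold change below 0. Its values were low, at 120, 101, 52.9 and 135 in shNT and 76.9, 36.7, 78.2 and 71.5 in shSRC1, and the groups overlapped through shNT replicate 3. The log2 fold change was -0.60 (adjusted p = 0.16 in limma, SE 0.30), and -0.89 without shNT replicate 3 (limma adjusted p = 0.021). Its log2 ratio to RPL10 went from -8.37 ± 0.35 to -9.56 ± 0.54 (SD, n = 4 each).

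RPL22L1 and RPL22 are RNA-binding proteins of the large subunit. RPL22L1 had 4314, 5282, 3411 and 4726 in shNT and 5312, 5513, 5443 and 6119 in shSRC1, and RPL22 had 13584, 15352, 11072 and 14431 in shNT and 16136, 16603, 16687 and 19207 in shSRC1. Both rose, by 0.35 and 0.34, and RPL22L1 lost its call without shNT replicate 1 or any 1 of the shSRC1 libraries. The ratio differed by 0.01 between groups (exact permutation p = 0.80), with SDs of 0.07 and 0.03 within them, and both starts carry a tract.

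RPL36AL had 8622, 9302, 7885 and 9244 in shNT and 8931, 10118, 10142 and 12219 in shSRC1, and its ratio to RPL36A differed by 0.01 (exact permutation p = 0.94). RPL36A was scored with a tract and RPL36AL without, but in the printed sequence the RPL36AL start lies inside a run of pyrimidines that opens more than 3 bases before it. RPL3L, known from heart and skeletal muscle, had at most 43.7 in any library, and its ratio to RPL3 overlapped between groups (exact permutation p = 0.17). For these 3 pairs a difference was not shown, which does not show that the ratios were equal.

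**Figure D5:**
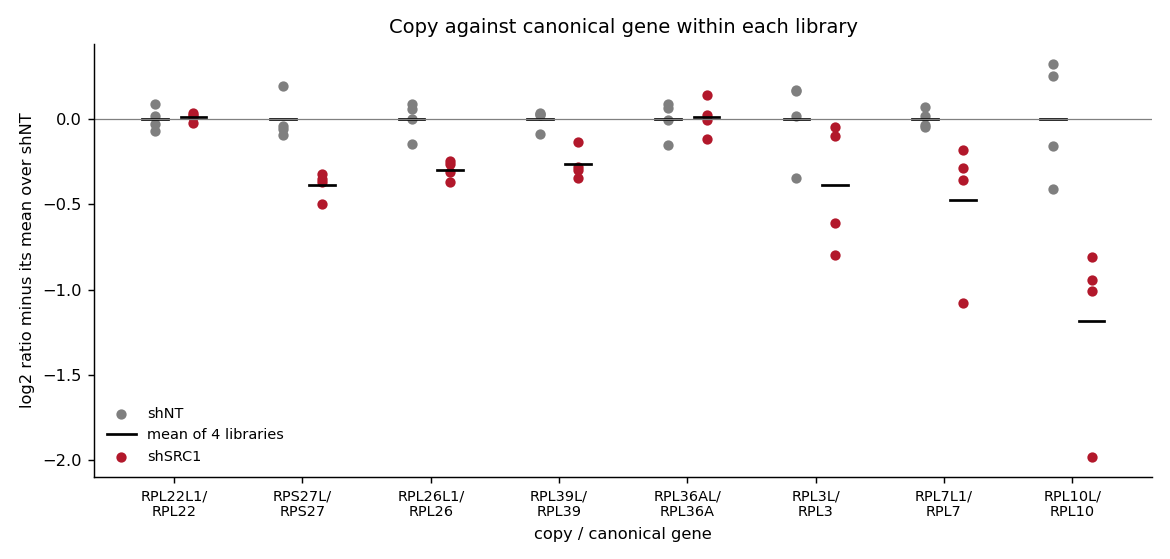
Each point is the log2 ratio of a copy to its canonical gene in a library, minus the mean of that ratio over the 4 shNT libraries (vertical axis), with shNT in grey, shSRC1 in red and group means as black bars. The ratios of RPS27L, RPL26L1, RPL39L, RPL7L1 and RPL10L are lower in all 4 shSRC1 libraries than in any shNT library, and those of RPL22L1 and RPL36AL differ by 0.01 on average.

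Pseudogene rows bear on several of the genes, since how reads that match more than 1 place were assigned is not stated. The table held 937 rows of numbered ribosomal pseudogenes, of which 127 passed the filter. Of these 127, 35 rose and 2 fell, where 12.0% of all tested genes rose and 11.2% fell. The 937 rows together took 12.4 to 12.7 reads per 100 reads of the 86 genes in shNT. In shSRC1 they took 12.7 to 12.8 in replicates 1, 3 and 4, and 16.8 in replicate 2. For 13 genes they held over 10% of the family's reads, and for RPL7, RPL21, RPSA and RPS3A over 50%. With each gene summed with its numbered pseudogene rows, 69 genes rose and the median was 0.49.

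Other genes of the ribosome's life cycle were taken from lists that were chosen with earlier results of these data known. Of 3 ribosomal components with other symbols 2 rose (66.7%, beside 12.0% of all tested genes). Among them, GNB2L1 (RACK1, a scaffold on the small subunit) rose by 0.48. FAU (a ubiquitin-like fusion) stood at 0.40 without passing (limma adjusted p = 0.067). In all 3 every shSRC1 value lay above every shNT value, a pattern that 16.9% of all tested genes showed. The count of 2 was 1 when any of shNT replicate 1 or the 4 shSRC1 libraries was left out.

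Among 23 tested messages known for a TOP tract or shared control with TOP messages but outside the ribosome, 12 rose (52.2%, beside 12.0% of all tested genes) and 0 fell (beside 11.2%), with a median of 0.32. UBB, a ubiquitin gene, rose by 0.78, COX7C, a subunit of cytochrome oxidase, by 0.74, IMPDH2, an enzyme of guanine nucleotide synthesis, by 0.64, and EEF1A1, the elongation factor that delivers transfer RNA, by 0.55. The count was 7 without shSRC1 replicate 4.

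Ribosome assembly factors did not move in one direction. Of 104 tested, 14 rose and 12 fell, with a median of 0.11, which is 13.5% and 11.5% of the list beside 12.0% and 11.2% of all tested genes. KRR1, a processome factor, fell by 0.57 and BCCIP, a large subunit assembly factor, by 0.56, whereas TSR1, a late small subunit factor, rose by 0.35. NOC3L, another nucleolar factor, fell by 0.49. The 26 calls became 10, 11 and 17 without shSRC1 replicates 1, 2 and 4.

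Of 33 genes for RNA polymerase I, the MYC network and the mTORC1 pathway, 5 rose and 3 fell, with a median of 0.02, which is 15.2% and 9.09% of the list beside 12.0% and 11.2% of all tested genes. ZNRD1, a subunit of RNA polymerase I, rose by 0.47 and MAX, the partner of MYC, by 0.38, while RPS6KB1, the kinase of RPS6, fell by 0.37 and MXD4, an antagonist of MYC, rose by 0.37. The 8 calls became 2 and 3 without shSRC1 replicates 1 and 2.

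The mitochondrial ribosome is built from another set of nuclear genes. Of its 76 tested genes 15 rose (19.7%, beside 12.0% of all tested genes) and 0 fell (beside 11.2%), with a median of 0.19, beside the cytosolic median of 0.49. MRPS18B rose by 0.56, MRPS27 by 0.37, MRPS2 by 0.38 and MRPL40 by 0.45. The count was 9, 5 and 6 without shNT replicate 1 and shSRC1 replicates 1 and 4. In shNT replicate 3 the median mitochondrial gene deviated by -0.43, beside -0.68 for the cytosolic genes.

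Outside the 86 genes and their pseudogenes, the genes whose values over the 8 libraries were most like the median ribosomal protein gene were SLC25A5, CCT3, APEX1, MRPS15, SEPHS2, ATP5B, CCT7, COMMD1, SRPRB and NDUFB1, with Pearson correlations of 0.997 to 0.999. SLC25A5, the adenine nucleotide carrier of mitochondria, had 38597, 42750, 29678 and 40374 in shNT and 48902, 48975, 47609 and 50376 in shSRC1, with shNT replicate 3 lowest as in the ribosomal protein genes. CCT3 and CCT7 are subunits of a cytosolic chaperonin. Of 19473 tested genes outside the 86, 915 (4.70%) had a correlation above 0.95. All points share the same 8 libraries, among which shNT replicate 3 has a large part in every such correlation.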

How the data were processed

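RNA-seq was deposited for 8 LY2 libraries, 4 per hairpin, grouped by their labels. The authors' values are a normalised signal per gene: read counts divided by a size factor per library, with TopHat2 2.0.12, HTSeq 0.6.1, DESeq2, DESeq and GRCh37 named in the submitters' processing notes. The sources used here do not give the counting options or the annotation. All 8 value columns were used and 0 left out. Whole reads were recovered from the steps of the values (100% whole within 0.001).

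The main test was limma 3.58.1 (R 4.3.3; trend, robust) on log2(value + 1) over 19559 genes with at least 10 in at least 4 libraries, Benjamini-Hochberg over all, called at 0.05. Fold changes are on that log2 scale and understate those of low genes. On recovered reads, edgeR 4.0.16 and DESeq2 1.42.0 were alternatives; edgeR called 2321 genes higher and 2316 lower, beside 2344 and 2194 in limma. In all, 23 alternatives were run. The script was tested on simulated data. Lengths and GC content came from GENCODE 29 (GRCh38), matched by gene ID for 96.1% of tested genes and 85 of 86 ribosomal protein genes. The ribosomal protein genes, all gene lists and the marker lists were chosen with earlier results of these data known. Genes named with values are the 6 with the smallest adjusted p per subunit, the 6 with the lowest fold change, the stalk, 5S and X-linked genes, the copies and up to 4 genes per list, by adjusted p; RPS6, RPS27A, RPS15, RPS25, RPL7, RPL22, RPL41 and RPS2 were added after their values were seen. Values of a few genes counted here are not reported by name.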

Additional observations from a re-analysis of the deposited data

Results flagged for a closer look

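Dixon's gap ratio, the distance of an extreme library from its nearest neighbour divided by the range of its group of 4, was examined in 90 groups of values, and 5 passed the 95% critical value for 4 values; chance passes about 5% of groups. In shSRC1, replicate 2 was low for RPL10L (ratio 0.839), low for the ratio of RPL10L to RPL10 (0.831) and high for pseudogene reads per 100 reads of the ribosomal protein genes (0.986). In shNT, replicate 3 was low for RPLP1 (0.831) and replicate 4 was low for the ratio of RPL39L to RPL39 (0.881).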

How the results depend on the processing

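The count of 69 higher ribosomal protein genes ran from 52 to 76 as each library was left out, and from 56 (length and GC correction) to 78 (replicate block) under the other settings. The share of all tested genes that rose ran from 8.63% to 12.9% as each library was left out. Under the other settings it ran from 5.13% (no filter on low values) to 16.8% (replicate block). The count of genes lower was 0 in every setting except without shNT replicate 3, and without that library and shSRC1 replicate 2 together, where it was 1. Scaling by library totals, chosen after seeing the data, gave 68 higher. Leaving out a library gave medians of 0.34 to 0.55 for the large and 0.36 to 0.58 for the small subunit.

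The labels do not say that replicate numbers pair the libraries. Deviations of same-numbered libraries correlated at 0.24, -0.01, 0.13 and 0.14, against at most 0.07, 0.13, -0.02 and 0.02 with another number, so all but number 2 correlated best with their own, a hint from the data and not the design. With the replicate block, RPL21, RPL26L1, RPL27A, RPL30, RPL36A, RPL36AL, RPL39L, RPS15 and RPS25 passed as well, and all calls went from 4538 to 6398. The replicate block gave 48 calls among assembly factors and 27 among mitochondrial ribosomal protein genes, and NCOA1 stayed at -1.11. No paired analysis of the copy ratios was made.

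Leaving out 1 library gave 1 to 3 calls among components with other symbols, 7 to 12 among other TOP messages, 10 to 27 among assembly factors, 2 to 9 among polymerase I and growth genes, and 5 to 22 among mitochondrial ribosomal protein genes. With shNT replicate 3 and shSRC1 replicate 2 both left out, assembly factors gave 15 calls and polymerase I and growth genes 5. Length and GC correction left 1 component with another symbol, with or without the replicate block.

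RPS24 turned sign under DESeq2 (-0.00832), edgeR (-0.00935), library total (-0.0508), TMM (-0.00524) and upper-quartile scaling (-0.00842), length and GC correction with or without the replicate block (-0.0422) and without both libraries (-0.0588), and ran from -0.0895 to 0.0537 with 1 library left out. RPL3L turned to -0.107 without both libraries and ran from -0.0306 to 0.202 with 1 left out. The ratio of RPL22L1 to RPL22 was -0.0217 without both libraries and -0.0136 to 0.0396 with 1 left out, and that of RPL36AL to RPL36A was -0.0377 and -0.0425 to 0.0510. With a library left out, the smallest exact p for a ratio is 0.0571, so that test cannot reach 0.05. In all these cases the cause was not tested, beyond the smaller number of libraries. Depth was lowest in shSRC1 replicate 2, where 3 reads correspond to a value of 5.25, which limits RPL3L and RPL10L.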
